A study of Drosophila melanogaster with 3 samples.

Results

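Binding of the zinc finger protein D19A was examined at 36 Polycomb and Trithorax group genes of Drosophila melanogaster, out of 13945 protein-coding genes on the 6 chromosome arms analysed. The genes were taken from a list of symbols that leaves out polyhomeotic, and all 36 were found in the gene models, 35 by symbol and calypso by its synonym. For each gene, ChIP-seq summits within 250 bp of one of its transcription start sites (TSSs), or anywhere inside the gene, were collected. The assay was chromatin immunoprecipitation with sequencing on whole embryos of mixed sex, 0 to 20 h old, so a summit may come from any tissue or age in that range. The line was transgenic and stably expressed D19A fused at its C-terminus to eGFP. The immunoprecipitation was labelled as done with an anti-GFP antibody, while the antibody field reads D19A, and the promoter that drives the fusion was not given in the sources used here. There were 3 biological replicates of this single group, with no untreated or mutant group, so conditions could not be compared. Peaks could be ranked within each list, and those ranks set side by side between replicates.

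Polycomb and Trithorax group proteins keep developmental genes, the Hox genes among them, silent or active through cell division. The Polycomb proteins act in complexes: PRC2 methylates histone H3, PRC1 binds the methylated chromatin and ubiquitylates histone H2A, and PhoRC binds DNA at Polycomb response elements. Trithorax proteins counter them, as methyltransferases of COMPASS-like complexes, as the BRM (Brahma) nucleosome remodeller, or as parts of Mediator and bromodomain proteins.

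The sequence under the summits differed from gene to gene, and 7 examples show the range. Each reaches 50 bp to either side of a summit and is read 5′ to 3′ on the plus strand of the RefSeq assembly, whose arms match those of dm6 in length. Capitals mark runs of at least 8 bases that are all A or T. The first 3 are the promoter windows richest in A and T, the next 2 are promoter windows with no such run, and the last 2 are intronic windows of the strongest peaks of trx and osa.
E(z) promoter, chr3L:10637977-10638077: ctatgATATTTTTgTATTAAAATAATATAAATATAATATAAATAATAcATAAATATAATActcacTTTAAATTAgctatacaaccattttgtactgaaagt
brm promoter, chr3L:15982945-15983045: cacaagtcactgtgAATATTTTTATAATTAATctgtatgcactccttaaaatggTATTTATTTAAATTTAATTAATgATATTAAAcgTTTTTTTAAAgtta
pho promoter, chr4:1181786-1181886: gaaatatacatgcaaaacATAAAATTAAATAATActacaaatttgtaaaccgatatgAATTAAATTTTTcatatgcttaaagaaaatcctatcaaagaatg
fs(1)h promoter, chrX:8058490-8058590: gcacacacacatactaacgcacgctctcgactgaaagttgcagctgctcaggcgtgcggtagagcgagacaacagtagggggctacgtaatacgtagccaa
corto promoter, chr3R:5087244-5087344: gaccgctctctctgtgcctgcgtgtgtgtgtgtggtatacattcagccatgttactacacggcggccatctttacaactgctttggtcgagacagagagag
trx intron, chr3R:14283839-14283939: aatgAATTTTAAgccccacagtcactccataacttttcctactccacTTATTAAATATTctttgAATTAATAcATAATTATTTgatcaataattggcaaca
osa intron, chr3R:17700529-17700629: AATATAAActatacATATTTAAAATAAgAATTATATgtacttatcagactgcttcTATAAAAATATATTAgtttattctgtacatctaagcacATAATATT

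The A or T share of these windows was 84.2% at E(z), 80.2% at brm and 79.2% at pho, against 45.5% at the fs(1)h promoter and 47.5% at that of corto. It was 72.3% in the trx intron and 81.2% in the osa intron. The longest run of A or T was 33 bp at E(z), 22 bp at brm and 16 bp at pho.

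Peaks were ranked by the signal value the authors deposited, from 1 for the strongest. The list that passed the authors' irreproducible discovery rate (IDR) procedure held 7769 peaks, all of them among the 7769 strongest of the 30000 in the pooled list, so its ranks and the pooled ranks are the same scale. Each replicate list also held 30000 peaks, and its 7769 strongest were used to count genes per replicate on equal terms. The deposited values carry no read counts, so library depth is unknown and a gene without a peak is one where none was detected.

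Of the 36 genes, 13 (36.1%) had an IDR summit at a promoter, beside 15.3% of all protein-coding genes. They were Su(z)2, Pc, Psc, E(z), jing, pho, brm, osa, skd, fs(1)h, kis, corto and cg. In the pooled list 18 genes had one, beside 31.0% of protein-coding genes. Among the strongest peaks of each replicate there were 9 genes in replicate 1, 17 in replicate 2 and 10 in replicate 3, a mean of 12 ± 4.36 (SD, n = 3). The matching shares of protein-coding genes were 14.5%, 18.0% and 13.5%, so the members stood above the background in each replicate, with replicate 2 the highest. Counting summits inside the gene as well added only trx, giving 14 genes (38.9%) in the IDR list beside 23.7% of protein-coding genes, and 18 genes in the pooled list beside 38.9%. The 13 genes held 16 promoter peaks, whose median rank of 5219.5 was weaker than the 4120.0 of all 1849 IDR peaks at protein-coding promoters.

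**Figure D1:**
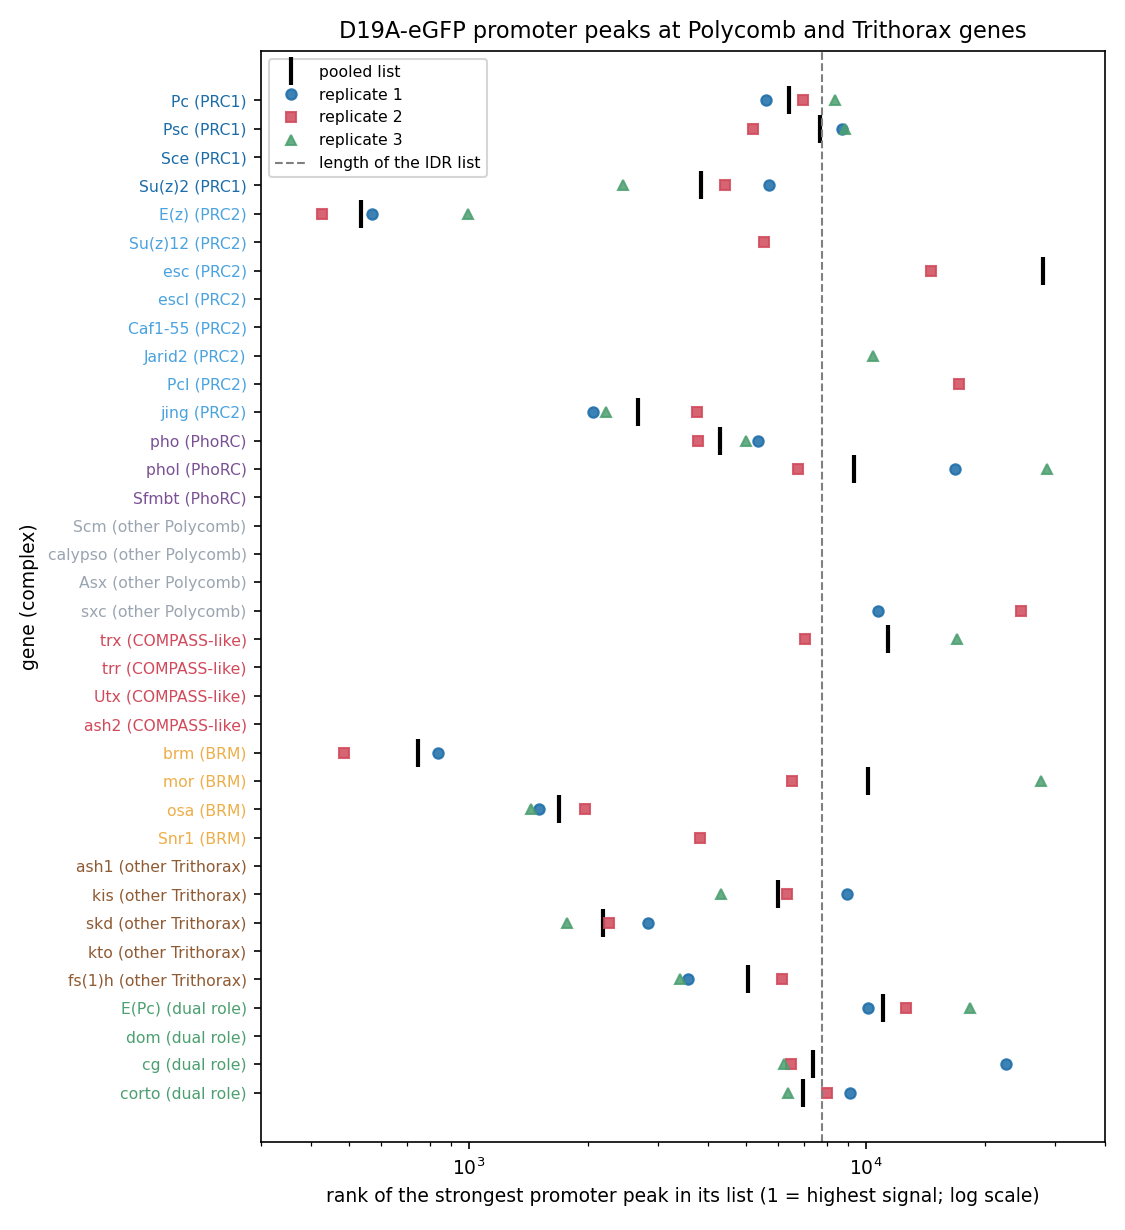
Rank of the strongest promoter peak of each of the 36 genes in the pooled list (black bars) and in each replicate list (symbols), on a log axis where 1 is the highest signal; the dashed line is the length of the IDR list, 7769. E(z) and brm lie furthest to the left, brm has no symbol for replicate 3, and 13 genes have no symbol at all.

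Polycomb repressive complex 1 was marked at 3 of its 4 genes, all at modest ranks. For this and each group below, the matching share of all protein-coding genes in the IDR list was 15.3%. Su(z)2, a relative of Psc, had a peak at 2R:12996315-12996758 with the summit 36 bp downstream of the TSS in the untranslated exon, at IDR rank 3845. Its ranks were 5693, 4413 and 2444 and its signal values 100.5, 214 and 176 in replicates 1, 2 and 3, and the replicate summits lay 1, 43 and 5 bp from the IDR summit. The position was thus held closely while the rank moved. Pc, whose chromodomain reads methylated histone H3, had a peak at 3L:21317883-21318326, 85 bp upstream of its TSS, at rank 6399 and at 5610, 6940 and 8342 in the replicates. Psc, the RING-finger partner of Sce, had a peak at 2R:12980599-12981042, 163 bp upstream of a TSS, at rank 7668, close to the end of the IDR list. It ranked 8730, 5211 and 8863, so only replicate 2 placed it among the strongest, and the nearest replicate summits lay 7, 82 and 20 bp away, although the strongest peaks over it had theirs at 209, 82 and 301 bp. Sce, the ubiquitin ligase, had no promoter summit in any list. Among the strongest replicate peaks the complex counted 2, 3 and 1 genes (2.00 ± 1.00, SD, n = 3).

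Psc and Su(z)2 are neighbours, 15.5 kb apart and transcribed away from each other. Chosen after its values were seen, and outside the rule, the interval between them held a much stronger peak than either promoter, at 2R:12984954-12985441 and IDR rank 143. It ranked 169, 104 and 196 with signal values of 1199.9, 2630.3 and 1028, so all replicates placed it high. Its summit was 4213 bp from the 5′ end of Psc, 11294 bp from that of Su(z)2 and 160 bp from the TSS of the noncoding RNA gene lncRNA:CR44339. A second IDR peak in the interval ranked 2919. Both were rich in A and T, at 79.2% and 78.2%.

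Polycomb repressive complex 2 was marked at 2 of 8 genes, one in the core and one accessory. E(z), the methyltransferase of the complex, carried the strongest promoter peak of all 36 genes, at 3L:10637825-10638248 and IDR rank 536. Its summit lay in an intron, 103 bp downstream of the TSS, and 119 bp from the TSS of its neighbour Cnep1r2, so the peak cannot be given to E(z) alone. It ranked 570, 426 and 998 with signal values of 544, 1114 and 332, and the replicate summits were 1, 5 and 32 bp away. Replicate 3 gave it the weakest rank, still well inside the strongest peaks. jing, the zinc finger accessory subunit, had a peak at 2R:6610331-6610574, 8 bp upstream of an internal TSS within its intron, at rank 2674. It ranked 2053, 3752 and 2222, with summits 4, 11 and 8 bp away. The core genes Su(z)12, esc, escl and Caf1-55 and the accessory genes Jarid2 and Pcl had no IDR promoter summit. Su(z)12 had one in replicate 2 only, at rank 5534, and esc one at 14597 in replicate 2 and 27945 in the pooled list. Jarid2 had one at 10412 in replicate 3 only and Pcl one at 17156 in replicate 2 only, so these rested on single replicates. The complex counted 2, 3 and 2 genes among the strongest replicate peaks (2.33 ± 0.577, SD, n = 3).

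PhoRC, the DNA-binding Polycomb complex, was marked at 1 of 3 genes. pho, which encodes its sequence-specific protein, had a peak at 4:1181614-1182057, 208 bp upstream of its TSS, at rank 4288, with replicate ranks of 5359, 3785 and 5006. Its replicates differed little in rank, and their summits were 35, 38 and 16 bp from that of the IDR peak. phol, a homologue of pho, was just outside the IDR list at pooled rank 9325, the nearest of the members without an IDR promoter summit. It ranked 16773, 6746 and 28540, which put it among the strongest peaks only in replicate 2. Sfmbt, the partner of Pho, had none in any list. The counts per replicate were 1, 2 and 1 (1.33 ± 0.577, SD, n = 3). Of the remaining Polycomb genes, Scm, Asx and calypso, the last a histone H2A deubiquitinase, had no promoter summit in any list, and the glycosyltransferase gene sxc only weak ones at 10718 and 24622 in replicates 1 and 2.

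COMPASS-like complexes had the lowest count of the 5 compared, with 0 of 4 genes in the IDR list. Over all protein-coding genes the share was 15.3%, and with so few genes 0 of 4 cannot be told from it. trx, the founding Trithorax methyltransferase gene, had promoter summits at rank 7043 in replicate 2, at 16959 in replicate 3 and at 11410 in the pooled list. trr, a second methyltransferase gene, Utx, which encodes a demethylase, and ash2, a shared subunit gene, had none in any list. The complex thus counted 0, 1 and 0 genes (0.333 ± 0.577, SD, n = 3). The complexes hold 3 to 8 genes each, and no order among them was tested.

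The BRM remodeller was marked at 2 of 4 genes, and its replicates differed most, with 2, 4 and 1 genes (2.33 ± 1.53, SD, n = 3). brm, the ATPase gene, had the second strongest promoter peak, at 3L:15982839-15983154 and rank 746. Its summit lay 126 bp upstream of the brm TSS and 140 bp from that of Arl1, so the peak cannot be given to brm alone. It ranked 838 and 484 in replicates 1 and 2, with signal values of 428 and 1039 and summits 1 and 0 bp away. In replicate 3 no peak overlapped it among all 30000, and the nearest summit lay 13884 bp off. Of the 1000 strongest IDR peaks, 9 had no overlap in replicate 3, against 2 in replicate 1 and 0 in replicate 2, and the peak at brm was the 4th strongest of the 9. osa, a subunit with an ARID DNA-binding domain, had a peak at 3R:17717950-17718330, 135 bp downstream of its TSS in the untranslated region, at rank 1685. It ranked 1500, 1964 and 1437 with signal values of 283, 415 and 257, so the 3 replicates placed it within a narrow range. mor and Snr1, 2 further subunit genes, had no IDR promoter summit. mor stood at 6513 in replicate 2, 27617 in replicate 3 and 10154 in the pooled list, and Snr1 at 3819 in replicate 2 only. The full set of 4 BRM genes therefore appeared in replicate 2 alone.

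Other Trithorax genes were marked at 3 of 5. skd, which encodes a subunit of the Mediator kinase module, had a peak at 3L:21026063-21026390, 23 bp upstream of an internal TSS, at rank 2180 and at 2830, 2252 and 1770 in the replicates, with signal values of 178, 373 and 223. fs(1)h, the bromodomain gene, had 3 promoter peaks on the X chromosome, at ranks 5057 (X:8058318-8058761), 5382 (X:8060646-8061089) and 5555 (X:8060845-8061288). The last pair overlapped, lay on either side of the same TSS and met the same strongest replicate peaks, at 3559, 6241 and 5154. Those shared ranks are therefore not separate measurements. Replicate 1 had a summit near each, 1 bp and 8 bp away. In replicates 2 and 3 the nearest summits lay 185 and 262 bp from the peak ranked 5382. They lay 14 and 63 bp from that ranked 5555. The first of the 3 peaks ranked 6079, 6143 and 3402, and all values lay inside the strongest replicate peaks. kis, a chromodomain remodeller gene, had peaks 24 bp and 7 bp upstream of its TSSs, at 2L:250625-251068 with rank 6014 and at 2L:221747-222190 with rank 6228. They ranked 8961, 6347 and 6031, and 8934, 6371 and 4317, so replicate 1 placed both outside its strongest peaks. The replicate 1 peak at 8934 had its summit 366 bp from that of the IDR peak ranked 6228, where the nearest replicate 1 summit was 10 bp away. kto, the Mediator partner of skd, and the methyltransferase gene ash1 had none in any list.

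Among genes with a role in both groups, 2 of 4 were marked, both weakly. corto, a chromodomain gene, had a peak at 3R:5087072-5087515, 222 bp upstream of its TSS, at rank 6952 and at 9114, 7993 and 6380 in the replicates. cg, which encodes a zinc finger protein of Polycomb response elements, had a peak at 2R:14173496-14173939, at rank 7346. Its summit lay 25 bp downstream of the cg TSS and 122 bp from that of mRpS16, so the peak cannot be given to cg alone. It ranked 22593, 6478 and 6222, so replicate 1 was far from the others. The replicate summits lay 206, 12 and 124 bp from that of the IDR peak. E(Pc), of the Tip60 complex, had promoter summits at 10103, 12651 and 18302 and at pooled rank 11081, outside the strongest lists in every replicate. dom, the ATPase gene of that complex, had none in any list.

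**Figure D2:**
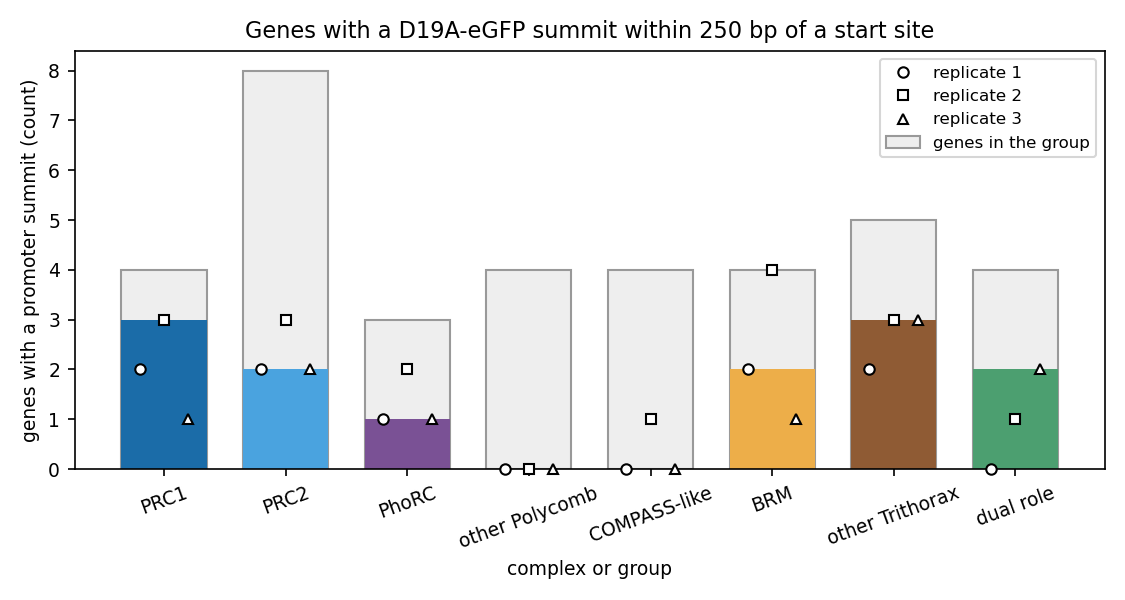
Number of genes with a summit within 250 bp of a TSS in each complex or group, as a coloured bar for the IDR list inside a grey bar for the number of genes, with symbols for the strongest 7769 peaks of each replicate. PRC1 has 3 of 4 genes, COMPASS-like 0 of 4, and the BRM symbols spread from 1 to 4. The share of all protein-coding genes in the IDR list was 15.3%.

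Of the 16 promoter peaks, 15 were overlapped in all 3 full replicate lists, beside 94.4% of the IDR peaks at protein-coding promoters and 96.7% of all IDR peaks. In all 3 lists of strongest peaks 9 of 16 were overlapped, beside 67.0% and 69.8%. Both counts were close to those of other peaks, the second somewhat below. The genes with a promoter summit among the strongest peaks of every replicate were Su(z)2, E(z), jing, pho, osa, skd and fs(1)h. Summits lay 7 to 222 bp from the TSS, with a median of 98.0 bp against 131 bp for all protein-coding promoter peaks, and 11 of 16 were upstream. The side was not counted for the promoter peaks of other genes, so it is not read as particular to the members. Of the 23 genes without an IDR promoter summit, 13 had no promoter summit in any list and the other 10 had one in at least 1 replicate. The same count was not made over all protein-coding genes, so it is not read as particular to the members. The full lists of replicates 1, 2 and 3 marked 16, 22 and 17 of the 36 members. They marked 30.6%, 35.8% and 28.4% of all protein-coding genes.

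Marked members were long genes. Their median length was 12.8 kb, against 5.22 kb for the unmarked members, 3.32 kb for all protein-coding genes with an IDR promoter summit and 2.17 kb for all protein-coding genes. By length, a promoter summit was found at 1 of 12 members up to 5 kb, beside 12.9% of protein-coding genes of that length, and at 3 of 11 members of 5 to 10 kb, beside 19.7%. It was found at 4 of 6 members of 10 to 20 kb, beside 24.2%, and at 5 of 7 members over 20 kb, beside 25.8%. The shorter members were thus near the background, and those over 10 kb above it. Marked members also had more TSSs, with a median of 2.00 against 1.00. A head-to-head neighbour within 500 bp was present at 6 of the 13 marked and 13 of the 23 unmarked genes. Neither TSS medians nor such neighbours were counted over all protein-coding genes, so they are not read as particular to the marked members. How far length and the number of TSSs account for the members' share was not tested.

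Inside the genes and away from their own promoters, 45 IDR summits fell in 9 members, 42 of them in introns, 3 in untranslated regions and 0 in coding sequence. jing held 22 of them, osa 6, trx and kis 4 each, Su(z)2 3, fs(1)h and pho 2 each, and Psc and skd 1 each. They lay a median of 3765 bp from the nearest TSS of any gene, and 35 were over 1000 bp away. Their median rank was 3762; 44 were overlapped in all 3 full replicate lists and 31 in all 3 lists of strongest peaks. Those counts were near the 96.7% and 69.8% of all IDR peaks. The split by part of the gene and the distances were not counted for summits inside other genes. Neither is therefore read as particular to the members.

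The strongest was in an intron of jing, at 2R:6612243-6613259, 1017 bp wide and at IDR rank 159. It ranked 128, 219 and 144 with signal values of 1502, 1675 and 1324, and lay 907 bp from a jing TSS. A further jing peak, at 2R:6547609-6548134 and rank 782, lay 45.9 kb from the gene's 5′ end and ranked 605, 1271 and 508. The same interval held another IDR summit, at rank 3762, that met the same strongest replicate peaks. Those shared ranks are not separate measurements, although the nearest replicate summits lay 14, 15 and 6 bp from it. jing, at 119.8 kb the longest member, carried summits away from its promoters from 10.5 to 119 kb from its 5′ end. osa had peaks at 3R:17700339-17700829 (rank 219) and 3R:17704215-17704600 (rank 299), which ranked 296, 158 and 344, and 337, 216 and 531. They were the ends of a group of 5 summits that spanned 3.81 kb, 14 to 17.8 kb from the osa start, and the first lay 162 bp from the TSS of the noncoding RNA gene lncRNA:CR46036. Both were stronger than the promoter peak of osa in every replicate. trx, with no IDR promoter summit, had an intronic peak 3.01 kb from its start, at 3R:14283661-14284092 and rank 288. It ranked 378, 204 and 442 with signal values of 740.1, 1752 and 579, so all replicates placed it high, and 3 weaker summits followed within 8.80 kb of the start. The kis peak at rank 1937 lay 42 bp from the TSS of lncRNA:CR44222, inside the gene.

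**Figure D3:**
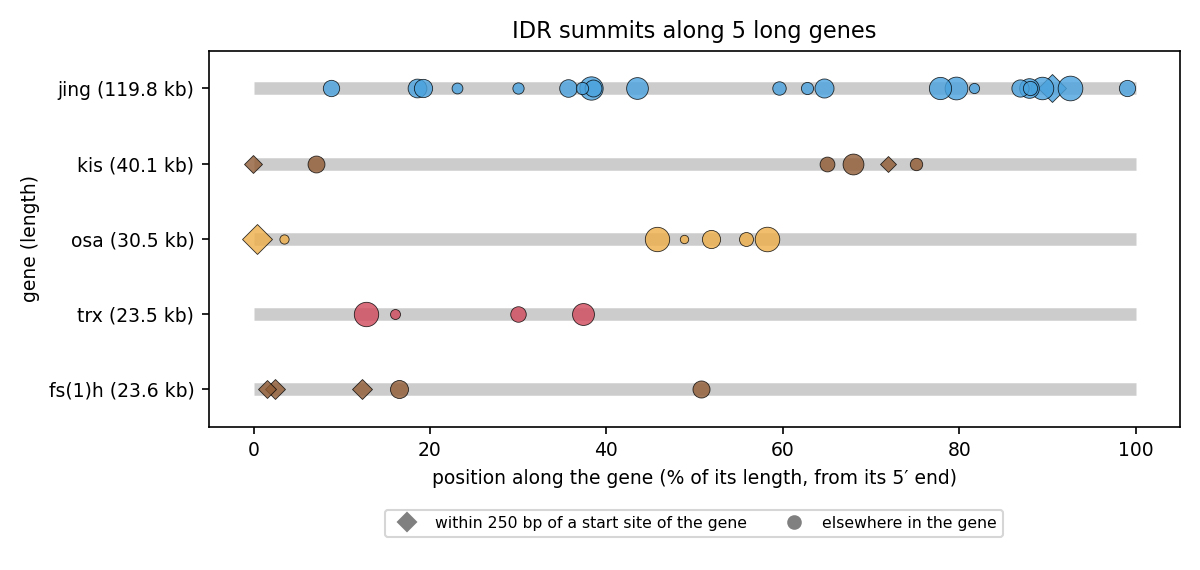
Position of IDR summits along the 5 long genes named, as a percentage of gene length from the 5′ end, with diamonds within 250 bp of a TSS of the gene, circles elsewhere, and larger symbols for stronger ranks. jing carries 23 summits over 119.8 kb, and the osa summits cluster near the middle of the gene.

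Per Mb of gene, the members held 111 IDR summits (56 in 0.502 Mb, exact 95% Poisson interval 84.2 to 145), against 52.3 (50.9 to 53.8) over all protein-coding genes, a ratio of 2.13. The Poisson intervals here take summits as independent, but summits were grouped: jing held 23 of the 56, and 5 in osa spanned 3.81 kb. The intervals are therefore too narrow and serve as no test. In the strongest peaks of the replicates the members held 123 ± 21.8 per Mb and all protein-coding genes 52.8 ± 1.26 (SD, n = 3), with ratios of 2.20, 2.04 and 2.72. The difference lay in the longest genes. The members over 20 kb held 156 (114 to 208), against 51.5 for protein-coding genes of that length, while the members up to 20 kb held 48.1 (23.1 to 88.5), against 53.2. Without jing the density of the members was 86.3 (59.4 to 121), a ratio of 1.65, and 91.5 ± 18.3 in the replicates. Among the 1013 protein-coding genes over 20 kb, osa stood at percentile 96.0, fs(1)h at 94.4, jing at 93.3, trx at 90.8, kis at 83.5, skd at 62.5 and sxc, with 0 summits, at 35.7.

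**Figure D4:**
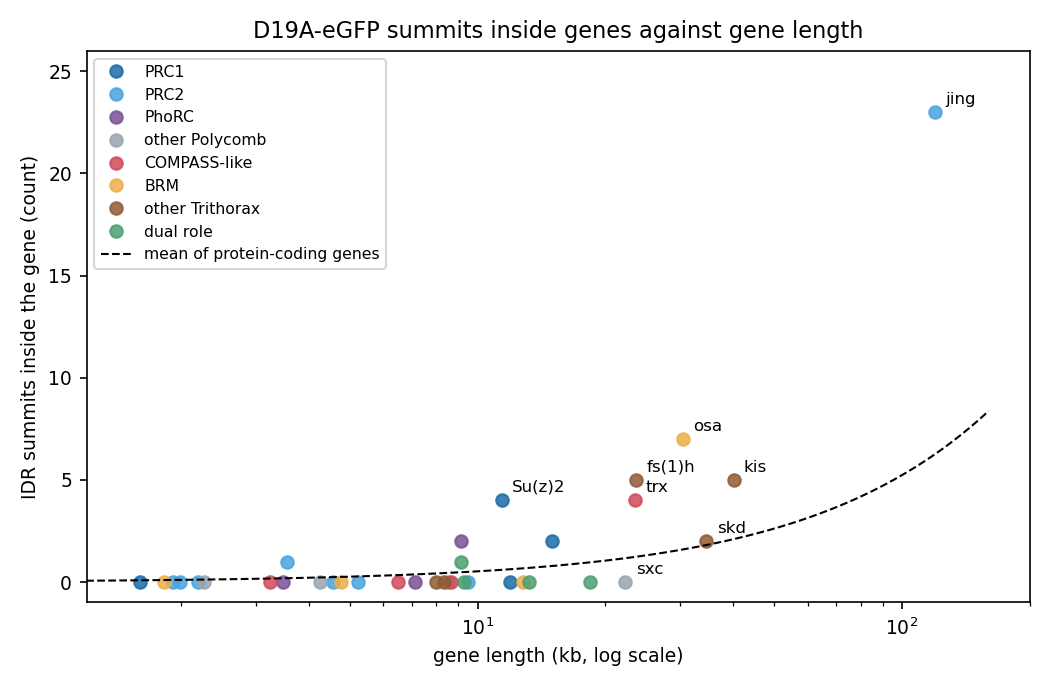
IDR summits inside each member (count) against its length in kb on a log axis, coloured by complex, with a dashed line for the mean density of all protein-coding genes, 52.3 per Mb. Of the genes labelled, jing, osa, fs(1)h, trx, kis and Su(z)2 lie above the line, skd on it and sxc below it. E(z), pho, Psc and cg, not labelled, also lie above it.

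Promoter summits of the members were on average poorer in A and T than those of other bound promoters. The 16 member windows, 50 bp to either side of the summit, held 56.1% ± 13.8 (SD over windows) A or T, close to their flanks (58.0%), whereas the 1849 windows of all protein-coding promoter peaks held 66.0% ± 11, above their flanks (59.2%). In the strongest peaks of the replicates the member value was 59.5%, 58.3% and 57.2% (58.3% ± 1.14, SD, n = 3). The windows of E(z), brm and pho were the 3 over 75%, against 24.3% of all windows, while 7 windows, 2 of them at fs(1)h, lay under 50%, against 10.3%. Of the 16 windows, 6 were richer in A or T than their own flanks, against 69.8% of all. Within ranges of rank the mean share of the members was again the lower. In the stronger part of the IDR list the members held 60.9% (6 windows) and all promoters 69.7%, and in the weaker part 53.2% (10 windows) and 62.8%. Richer than their flanks were 4 of the 6 windows in the stronger part, against 84.4% of all. In the weaker part 2 of the 10 were, against 57.1%. The 45 intragenic summits, at 63.4% ± 10.6, were richer than the members' promoter summits and than their own flanks (57.0%). They were below the 67.5% ± 9.44 of all IDR summits. Windows are not replicates, and some of the peaks they come from overlap, as at fs(1)h and in jing.

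**Figure D5:**
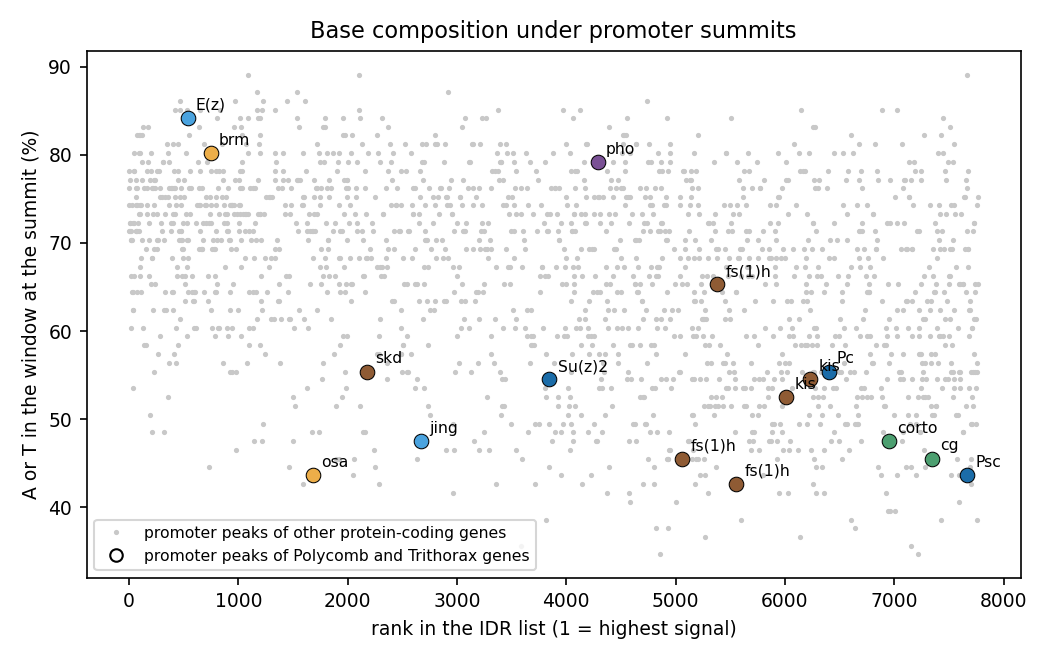
A or T share (%) of the windows at promoter summits against rank in the IDR list, with small grey points for promoter peaks of other protein-coding genes and large circles for the members, coloured by complex. E(z), brm and pho lie above 75%, and osa, jing, Psc, corto, cg and 2 fs(1)h summits lie below 50%.

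Short sequence motifs were searched on both strands of the promoter windows, as letters only. GAGAG, the letters of GAGA factor sites, was in 5 of 16 member windows (31.2%), against 10.1% of all promoter summit windows, 25% of the members' flanks and 12.7% of windows at all protein-coding TSSs. The windows were those of Psc, jing, corto and 2 at fs(1)h. GCCAT, the core letters of Pho sites, was in 5 (31.2%), at jing, skd, corto, cg and fs(1)h, against 11.8% of all promoter summit windows, 9.38% of flanks and 16.8% of TSS windows. At the TSSs of members without an IDR promoter summit, GCCAT was in 10 of 33 windows (30.3%) and GAGAG in 1 (3.03%), so the share of GCCAT was as high there as under the summits. The letters CGATA, within sites of the insulator protein BEAF-32, were in 2 (12.5%), against 17.2%, and TATCGATA, the DRE, which contains them, in 0 against 1.84%. The A/T word AAATATAT was in 1 (6.25%), at Su(z)2, against 7.79%, and CANNTG in 5 (31.2%), against 31.4%. At 16 windows, 1 window is 6.25%, and the letters say nothing of occupancy by these factors.

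The other genes of these pathways were taken from a further list. Of 29 partner genes, 6 (20.7%) had an IDR promoter summit and 10 (34.5%) one at the promoter or inside, beside the 15.3% and 23.7% of protein-coding genes. Of 6 further BRM subunit genes 0 were marked, and of 11 further COMPASS genes 1 was, Lpt, which encodes a subunit of the trr complex. Lpt had the strongest, at rank 1009 and 974, 1199 and 789 in the replicates, 184 bp upstream of its TSS. Trl, which encodes GAGA factor, followed at 1675 (1432, 1712 and 1987), and lolal, a BTB-domain partner of it, at 2049 (2039, 2210 and 1803). The replicates differed little in rank for these 3. tna, a Trithorax gene, ranked 4576 and Kdm2, a demethylase gene, 5596.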

How the data were processed

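The authors deposited 5 peak lists in dm6 coordinates, per the labels: 1 per replicate, 1 on the pooled replicates and the IDR list. Each peak carries a deposited signal value with no stated normalization, used only to rank peaks within its list, a deposited −log10 q-value, not used for ranking, and a deposited summit offset, which gave the summit. The 3 replicate lists share 1 control file, so part of their overlap may come from it. Neither an aligner nor a peak caller nor an IDR cutoff was given in the sources used here. No read counts are given, so the depth is unknown, and the intervals cover counting error only, with summits taken as independent.

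Gene models were those of Ensembl release 115, with sequence from the RefSeq assembly. A gene counted as marked with a summit within 250 bp of any of its TSSs. Replicate ranks are those of the strongest replicate peak overlapping the IDR peak by at least 1 bp. Shares of all 13945 protein-coding genes gave the background. No test was made: there is 1 group, and the members and lists were chosen with earlier results of these data known. Replicate numbers name samples and pair nothing. Motifs and A or T shares were read from 50 bp to either side of summits and from windows of the same size centred 200 bp to either side. Counting was tested on simulated data. All members could be named, with full values for those with an IDR promoter summit, the 5 with most summits inside, the 5 strongest peaks inside, and the 5 strongest partner genes. Alternatives were other windows of 100 and 500 bp, the peak interval over the TSS, other lists, sequence windows of 25 and 100 bp to either side, and leaving out each replicate; leaving out jing or the members over 20 kb, and using listed symbols only, were chosen after seeing the data. Python 3.11.15, numpy 2.4.6, scipy 1.17.1 and matplotlib 3.10.9 were used.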

Additional observations from a re-analysis of the deposited data

How the results depend on the processing

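The 13 members with an IDR promoter summit became 7 with a window of 100 bp, beside 5.46% of protein-coding genes. With 500 bp they stayed at 13, while the share of protein-coding genes rose from 15.3% to 20.1%. They were 6 in the stronger 3884 IDR peaks (7.82%) and 7 where all 3 replicates met the peak (10.2%). With summits within 100 bp in all 3 there were 7 (9.35%), and the pooled list gave 18 (31.0%). Leaving out 1 replicate gave 7 to 9 members, 7 without replicate 2, beside 10.7% of protein-coding genes. There were 9 without replicate 1 (11.1%) and 9 without replicate 3 (12.4%). Counting inside the gene as well gave 11, 10 and 12 members without replicates 1, 2 and 3, beside 18.7%, 18.6% and 20.4% of protein-coding genes. PRC1, at 3, had 1 in the stronger peaks, 1 where all replicates met the peak, 1 with summits within 100 bp, and 1 to 2 with a replicate left out, 1 without replicate 1 or 2. PRC2, at 2, had 1 with the 100 bp window. PhoRC, at 1, had 0 with it, 0 in the stronger peaks and 2 in the pooled list. COMPASS-like, at 0, had 1 in the pooled list. BRM, at 2, had 0 with the 100 bp window, 1 with the interval over the TSS, 1 where all replicates met the peak, 1 with summits within 100 bp, and 1 to 2 with a replicate left out.

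Density, at 111 summits per Mb, was 426 in the longer pooled list, 57.7 in the stronger peaks, 77.6 where all replicates met the peak, 71.7 with summits within 100 bp and 83.6 to 91.6 with a replicate left out, since each of these lists has another length. It was 86.3 without jing and 48.1 without the members over 20 kb, both chosen after seeing the data. The ratio to all protein-coding genes stayed between 1.96 and 2.28 over the other lists. Without jing it was lower, between 1.41 and 1.68 over the same lists. The A or T share, at 56.1%, was 60.9% in the stronger peaks, 57.5% where all replicates met the peak, 55.9% to 59.4% with a replicate left out, 58.1% with 25 bp and 57.5% with 100 bp to either side. Over all values recomputed, 54 counts, densities and shares stayed within 1.5 times the first count, or 1 replicate SD of the first density or share, and 35 did not. The unknown depth and the shared control limit what a missing peak shows, and the causes of these moves were otherwise not tested.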
